A study of Mus musculus with 12 samples.

Results

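The genes described here are 10 genes of acute inflammation: the interleukin 1 cytokines Il1a and Il1b, the cytokine gene Tnf, the chemokines Ccl2, Ccl5, Cxcl1, Cxcl9 and Cxcl10, and the NF-kappaB inhibitors Nfkbia and Tnfaip3. They were taken by symbol from a table of 24962 entries that hold 24033 gene symbols, and each had 1 entry. Of the 10 genes, 9 had a mean log2 value of at least 4 over all libraries and were tested; Tnf, with a mean of 2.87, was not. The samples were livers of wild-type C57BL/6 female mice, 12 libraries in 4 groups of 3. Intact females received PBS (vehicle) or dexamethasone, a synthetic glucocorticoid, at 1 mg/kg, and ovariectomized females, which lack the main source of oestrogen, received the same treatments. All livers were taken 6 h after treatment, and the design asks how the transcriptome responds to dexamethasone in a normal and in a hypogonadal state. The sources used here give no age, nor do they say whether each library came from a different animal. The p-values therefore measure only the spread between these samples, which may be technical.

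NF-kappaB is a family of dimeric transcription factors that is held inactive in the cytoplasm by inhibitor proteins, among them IkappaBalpha, the product of Nfkbia. Interleukin 1, tumour necrosis factor and microbial ligands act through their receptors, adaptors and the IkappaB kinase complex to destroy the inhibitor, and the freed dimers switch on cytokine and chemokine genes. They also switch on Nfkbia and Tnfaip3, whose products end the signal. In the liver, Kupffer cells are a main source of interleukin 1, and hepatocytes, endothelial cells and leukocytes add chemokines. The glucocorticoid receptor, which dexamethasone activates, is known for repressing many NF-kappaB target genes.

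Treatment separated the libraries. On the first principal component, with 49.9% of the variance, 6 of 6 vehicle and 0 of 6 dexamethasone libraries had negative scores. Fkbp5, whose product binds and restrains the glucocorticoid receptor, rose by 1.28 ± 0.218 (log2 fold change ± SE) in intact and 2.29 ± 0.218 in ovariectomized females. The summed level of 9 hepatocyte markers was between 22.04 and 22.41 on the log2 scale in every library, and none of the markers was listed at 0. Albumin dominates this sum. With dexamethasone 5 of the 9 markers rose in intact and 6 in ovariectomized females, with medians of 0.34 and 0.64. Of all genes, 22.8% and 21.3% rose. Library medians were between 8.82 and 8.86, and the root mean square difference between replicates was 0.172 to 0.32. Values are the deposited log2 expression, from which read depth cannot be had. In whole liver, fewer cells of a type and less RNA per cell cannot be told apart.

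Among the 9 genes tested, group means were furthest apart for Il1b, then for Cxcl10 and Il1a. Il1a and Il1b were higher in ovariectomized than in intact females under vehicle, and dexamethasone brought them down in ovariectomized but not measurably in intact females. The interferon-induced chemokine gene Cxcl10 fell with dexamethasone in both gonadal states. Tnfaip3 rose with dexamethasone in ovariectomized females, and Nfkbia passed in no comparison.

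Across the 9 genes tested, dexamethasone lowered 3 and raised 0 in intact females. Of all 12965 genes tested, 48.8% passed in that comparison (adjusted p under 0.05 by limma), 22.8% higher and 25.9% lower. In ovariectomized females it lowered 5 of the 9 and raised 1, against 40.7% of all genes that passed, 21.3% higher and 19.4% lower. Under vehicle, 2 were higher and 2 lower after ovariectomy, against 27.9% of all genes, 12.4% higher and 15.5% lower. Under dexamethasone, 0 were higher and 2 lower, against 12.8%, 7.74% higher and 5.08% lower. The dexamethasone response itself differed between gonadal states for 3 of the 9, 1 more positive and 2 more negative after ovariectomy, against 24.9% of all genes, 15.3% more positive and 9.65% more negative. In this fit the share of the 9 genes that passed with dexamethasone was below the background share in intact and above it in ovariectomized females. Over the alternative fits and thresholds the counts ran from 0 to 5 and from 3 to 7, and those of all genes moved too. The median log2 fold change of the 9 genes with dexamethasone was -0.18 in intact and -0.58 in ovariectomized females, beside 0.0013 and -0.00029 over all genes.

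The count of genes whose groups did not overlap gives the same comparison library by library. With dexamethasone, all treated libraries were below all vehicle libraries for 3 of the 9 genes in intact and 7 in ovariectomized females, and above them for 0 and 1. Of all genes tested, 28.6% and 26.5% were apart in this way downward and 26.9% and 28.1% upward. Between gonadal states under vehicle, 2 genes were apart upward and 3 downward after ovariectomy, against 20.7% and 24.4% of all genes. Under dexamethasone, 0 were apart upward and 4 downward, against 19.5% and 14.6%.

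**Figure D1:**
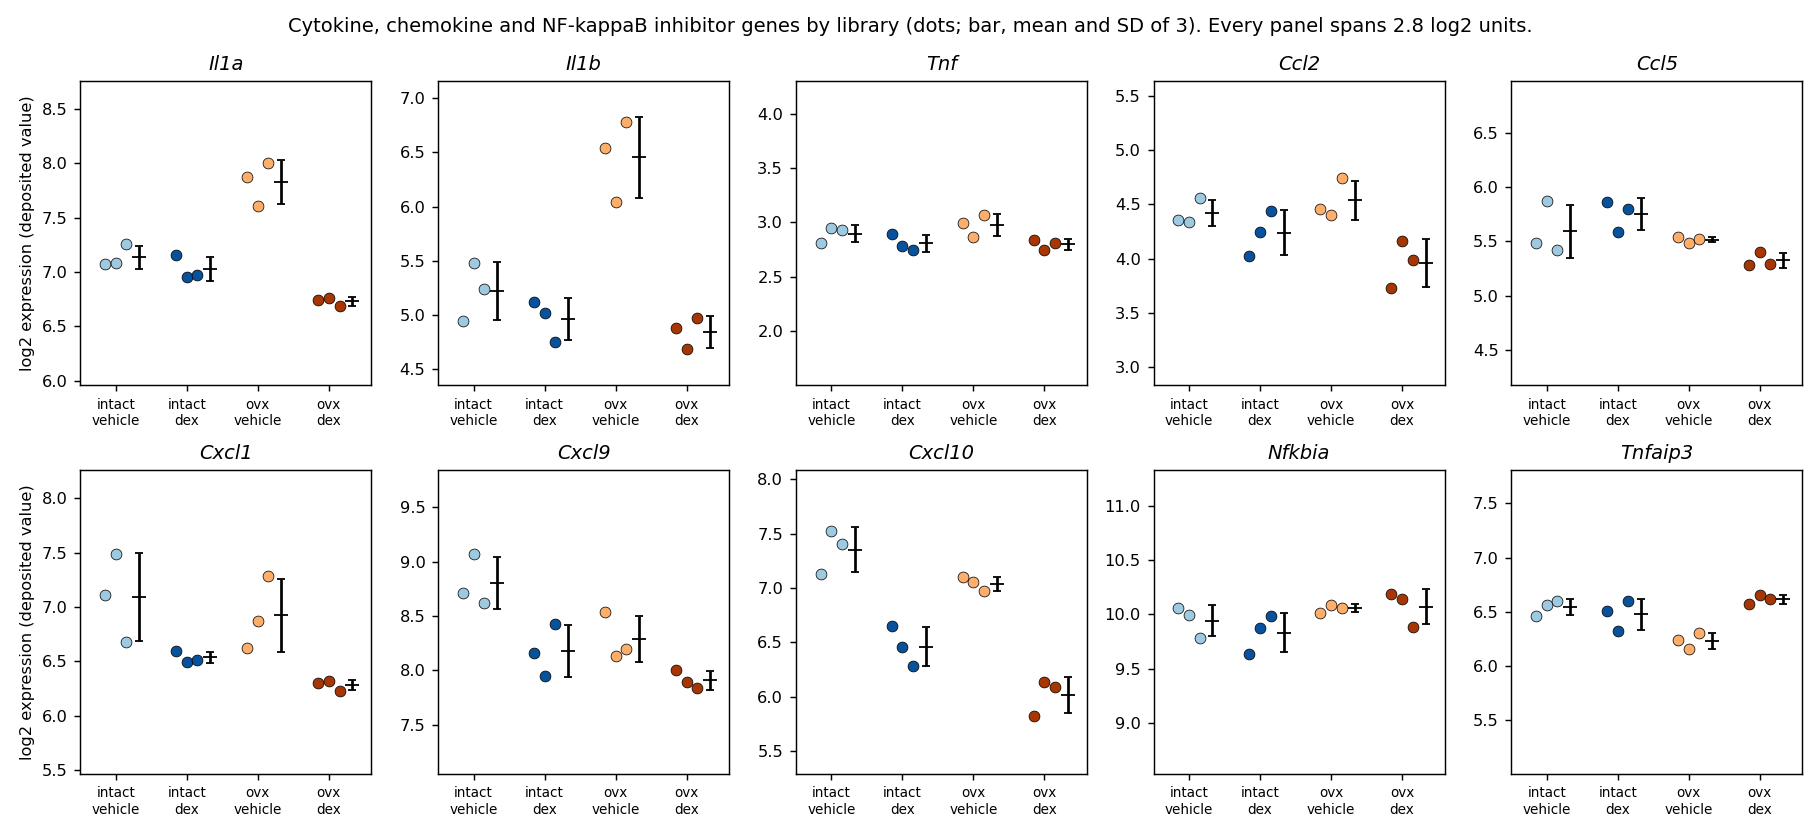
Log2 expression (y axis) of the 10 genes in the 12 libraries (dots) by group (x axis; ovx, ovariectomized; dex, dexamethasone), with the mean and SD of 3 libraries as a bar. Il1a and Il1b stand highest in the 3 ovariectomized vehicle libraries, and Cxcl10 is lower in every dexamethasone library than in every vehicle library.

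Promoters of 6 of the 10 genes are shown first, because they carry different transcription factor motifs. Of the 10 genes, 8 matched a promoter entry of RefSeq (GRCm38.p6), with 9 entries in all, since Tnfaip3 has 2; Ccl2 and Ccl5 did not match. Motifs were searched in windows of 300 bases, 250 before the start site and 50 from it on, as in all promoters of the table, and positions count from the start site, with -1 as the base before it. The kappaB consensus, to which NF-kappaB dimers bind, was found on either strand in 4 of the 8 genes: Cxcl1, Cxcl10, Nfkbia and Tnfaip3. It occurs in 8.46% of the 32851 promoter windows of the table, and in at least 1 window of 9.55% of its 27025 genes. The 250 bases before the start site are printed 5′ to 3′ along the gene's strand for these 4 genes. Capitals mark the kappaB consensus and, in Cxcl10 at -213 to -204, the interferon-stimulated response element core GAAANNGAAA.
Cxcl1 (chr5:90890995-90891244, plus strand): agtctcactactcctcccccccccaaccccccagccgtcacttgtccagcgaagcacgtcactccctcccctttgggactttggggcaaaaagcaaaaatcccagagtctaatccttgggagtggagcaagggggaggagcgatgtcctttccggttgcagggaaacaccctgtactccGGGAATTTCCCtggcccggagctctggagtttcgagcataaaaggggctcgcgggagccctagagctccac
Cxcl10 (chr5:92348890-92349139, minus strand): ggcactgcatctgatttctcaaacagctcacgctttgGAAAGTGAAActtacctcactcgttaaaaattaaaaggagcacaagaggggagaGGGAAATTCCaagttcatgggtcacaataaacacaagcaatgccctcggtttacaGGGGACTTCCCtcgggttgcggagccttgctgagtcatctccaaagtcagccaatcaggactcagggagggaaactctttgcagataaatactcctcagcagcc
Nfkbia (chr12:55492648-55492897, minus strand): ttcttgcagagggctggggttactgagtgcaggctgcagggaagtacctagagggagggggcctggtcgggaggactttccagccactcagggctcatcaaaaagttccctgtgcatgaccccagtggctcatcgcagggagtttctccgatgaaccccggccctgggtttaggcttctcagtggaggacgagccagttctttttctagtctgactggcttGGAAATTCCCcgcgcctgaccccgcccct
Tnfaip3 (chr10:19015411-19015660, minus strand): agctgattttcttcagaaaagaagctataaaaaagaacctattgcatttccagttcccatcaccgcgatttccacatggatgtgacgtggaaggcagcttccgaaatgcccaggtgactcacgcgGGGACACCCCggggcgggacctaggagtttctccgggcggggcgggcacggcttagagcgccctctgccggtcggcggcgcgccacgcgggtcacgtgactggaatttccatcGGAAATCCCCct

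In Cxcl1 the capitals cover 2 overlapping matches on opposite strands, at -71 to -62 and at -70 to -61. Cxcl10 has a match at -159 to -150 and 2 overlapping ones at -104 to -95 and -103 to -94. The Nfkbia match is at -29 to -20. Those of Tnfaip3 are at -125 to -116 and -12 to -3, in the entry shown; its other entry, 250 bases at chr10:19011964-19012213, minus strand, has none. The interferon-stimulated core is present in 3.44% of all windows and 3.99% of the 27025 genes. Among the 8 genes it is in Cxcl10 alone.

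The interleukin 1 genes had no match to the kappaB consensus in these windows. Both carry the TATA box TATAAA, searched on the gene's strand and marked here in capitals, at -32 to -27 in Il1a and at -31 to -26 in Il1b.
Il1a (chr2:129309973-129310222, minus strand): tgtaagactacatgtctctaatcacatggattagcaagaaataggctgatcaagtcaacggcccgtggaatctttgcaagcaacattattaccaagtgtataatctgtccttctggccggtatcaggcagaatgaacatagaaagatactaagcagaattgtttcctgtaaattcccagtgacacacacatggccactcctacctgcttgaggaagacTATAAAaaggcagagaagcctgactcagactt
Il1b (chr2:129371140-129371389, minus strand): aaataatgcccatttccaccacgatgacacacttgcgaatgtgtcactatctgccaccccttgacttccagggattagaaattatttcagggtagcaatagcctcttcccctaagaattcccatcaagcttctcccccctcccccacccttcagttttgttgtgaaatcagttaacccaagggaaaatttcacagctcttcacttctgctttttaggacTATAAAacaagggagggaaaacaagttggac

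TATAAA was also found in Tnf, Cxcl9 and the printed entry of Tnfaip3, and occurs in 8.32% of all windows and 9.77% of the 27025 genes. The AP-1 site TGANTCA was found in Il1a, Cxcl9, Cxcl10 and Tnfaip3, and in 7.81% of all windows and 8.97% of the 27025 genes. This site and the motifs below were searched on both strands. No window of the 8 genes held the full glucocorticoid response element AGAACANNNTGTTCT, which 3 of the 32851 windows hold. Its hexamer AGAACA was found in Cxcl9 (at -164 to -159 and at -14 to -9) and in the other entry of Tnfaip3 (at -11 to -6). It occurs in 19% of all windows and 21.3% of the 27025 genes. Matches of different motifs did not overlap in these 8 genes. These matches describe the letters in the windows and are not measured binding.

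Per kilobase of the longest annotated transcript, Nfkbia had the highest level of the 10 genes in every group and Tnf the lowest. On this log2 scale, intact vehicle livers had Nfkbia at 9.29, then Cxcl9 at 7.27, and a group of 4 genes (Cxcl10, Cxcl1, Ccl5 and Il1a) between 6.16 and 6.20 that lay within their SDs (0.106 to 0.408) of one another. Il1b followed at 4.78, Ccl2 at 4.29, Tnfaip3 at 3.91 and Tnf at 2.18. In ovariectomized vehicle livers Il1a stood second at 6.85 ± 0.203, within its SD of Cxcl9 at 6.76, and Il1b sixth at 6.01. Under dexamethasone Il1b was seventh of 10 in both gonadal states, at 4.52 and 4.41. Cxcl1 varied most among replicates, with a pooled within-group SD of 0.266, and Il1b with 0.258 was next, while the median SD of all genes with means of 6 to 8 was 0.133 and of 4 to 6 was 0.158.

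Il1b encodes interleukin 1 beta, a secreted cytokine that is cleaved by inflammasome caspases. Its log2 values were 4.95, 5.48 and 5.24 in intact vehicle and 5.12, 5.02 and 4.75 in intact dexamethasone replicates 1, 2 and 3. They were 6.54, 6.04 and 6.78 in ovariectomized vehicle and 4.88, 4.69 and 4.97 in ovariectomized dexamethasone libraries. The 3 ovariectomized vehicle libraries stood above the other 9, whose groups overlapped one another. Under vehicle, Il1b was 1.23 ± 0.187 higher after ovariectomy (2.35-fold, adjusted p = 0.00115). With dexamethasone it fell by 1.61 ± 0.187 in ovariectomized females (3.05-fold lower, adjusted p = 9.06e-05). The change in intact females did not pass, at -0.26 with a 95% interval from -0.67 to 0.15 (adjusted p = 0.276). The 2 responses differed by -1.35 ± 0.265 (adjusted p = 0.00454). Under dexamethasone the gonadal states did not differ by the test (-0.12, interval from -0.53 to 0.29, adjusted p = 0.701), and that value changed sign under quantile normalization (0.025).

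Il1a encodes interleukin 1 alpha, which acts on the same receptor and is active without inflammasome cleavage. Its values were 7.07, 7.08 and 7.26 in intact vehicle and 7.16, 6.95 and 6.97 in intact dexamethasone libraries. After ovariectomy they were 7.88, 7.61 and 8.004 under vehicle and 6.74, 6.76 and 6.69 under dexamethasone. As for Il1b, the ovariectomized vehicle libraries were the highest 3 of the 12, and here the ovariectomized dexamethasone libraries were the lowest 3. Ovariectomy raised Il1a by 0.69 ± 0.103 under vehicle (1.61-fold, adjusted p = 0.00108). Dexamethasone lowered it by 1.10 in ovariectomized females, with an SE of 0.103 (2.14-fold lower, adjusted p = 2.06e-05). In intact females the difference was -0.11, with an interval from -0.34 to 0.11 (adjusted p = 0.393). The difference between the responses was -0.99 ± 0.146 (adjusted p = 0.00124). Under dexamethasone Il1a was 0.30 lower after ovariectomy by the estimate, which did not pass (adjusted p = 0.0777) although the libraries did not overlap; without ovariectomized vehicle replicate 2 it passed (adjusted p = 0.0452). The calls of Il1a and Il1b with dexamethasone after ovariectomy, with ovariectomy under vehicle, and for the difference between responses kept an adjusted p of at most 0.0149 in every alternative fit. With a minimum absolute log2 fold change of 1, the calls of Il1a with ovariectomy (0.69) and for the difference (-0.99) were lost.

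Antisense genes overlap both loci, and the counting is not stated to use strand. In GENCODE M21, 11.2% of the exon bases of Il1a are shared with Gm14023 and 1.31% of those of Il1b with Il1bos, both on the opposite strand. Gm14023 had group means of 4.003 to 4.33, highest in intact vehicle. Il1bos means were 0.88 in ovariectomized vehicle, 0.83 in intact vehicle, 0.75 in intact dexamethasone and 0.73 in ovariectomized dexamethasone libraries. Their order was that of Il1b. The ovariectomized vehicle libraries of Il1bos (0.83 to 0.91) overlapped the intact vehicle ones (0.80 to 0.85). The part of antisense reads in the Il1a and Il1b results was not tested. For all 10 genes, at most 0.472% of 50-base words of the transcripts occur in another gene.

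Tnf encodes tumour necrosis factor, the other classical activator of NF-kappaB. It was near the lower end of the table and was not tested. Its values were 2.81, 2.95 and 2.93 in intact vehicle, 2.90, 2.78 and 2.74 in intact dexamethasone, 3.00, 2.87 and 3.06 in ovariectomized vehicle and 2.84, 2.74 and 2.81 in ovariectomized dexamethasone libraries. All 12 lay within 0.322 of one another. The ovariectomized vehicle libraries were above the ovariectomized dexamethasone ones, by 0.18 between means, and the other groups overlapped. The read depth behind these low values is unknown.

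Ccl2 encodes a chemokine that draws monocytes through the receptor CCR2. Its values were 4.35, 4.34 and 4.56 in intact vehicle and 4.03, 4.24 and 4.44 in intact dexamethasone libraries, and these groups overlapped. They were 4.46, 4.41 and 4.74 in ovariectomized vehicle and 3.73, 4.16 and 3.99 in ovariectomized dexamethasone libraries, which did not overlap. Ccl2 fell by 0.58 ± 0.147 with dexamethasone after ovariectomy (adjusted p = 0.00866). In intact females it was at -0.18, with an interval from -0.50 to 0.14 (adjusted p = 0.334). The difference between responses, -0.40 ± 0.208, did not pass (adjusted p = 0.178), so the responses of Ccl2 are not shown to differ.

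Ccl5 encodes a chemokine that T and NK cells produce in quantity. It was at 5.48, 5.87 and 5.42 in intact vehicle, 5.87, 5.58 and 5.80 in intact dexamethasone, 5.54, 5.49 and 5.53 in ovariectomized vehicle and 5.28, 5.41 and 5.29 in ovariectomized dexamethasone libraries. Ccl5 passed with dexamethasone in neither gonadal state (0.16, adjusted p = 0.301, and -0.19, adjusted p = 0.227); without intact vehicle replicate 2 the first passed at 0.30 (adjusted p = 0.0336). Under dexamethasone it was lower after ovariectomy by the estimate of -0.42 ± 0.121 (adjusted p = 0.0413). This call was lost when any 1 of 8 libraries was left out, with adjusted p from 0.0508 without ovariectomized vehicle replicate 2 to 0.134 without intact dexamethasone replicate 1. Intact dexamethasone replicate 3, ovariectomized vehicle replicates 1 and 3 and ovariectomized dexamethasone replicates 1, 2 and 3 were the others (0.0537 to 0.126). The summed level of 10 T and NK cell markers without Ccl5 was between 7.47 and 7.63 in all 12 libraries.

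Cxcl10 encodes a chemokine for activated T cells that interferon and NF-kappaB induce together. Its values were 7.13, 7.53 and 7.41 in intact vehicle and 6.65, 6.45 and 6.28 in intact dexamethasone libraries. They were 7.10, 7.05 and 6.97 in ovariectomized vehicle and 5.82, 6.13 and 6.09 in ovariectomized dexamethasone libraries. Every dexamethasone library was below every vehicle library, in both gonadal states. Cxcl10 fell by 0.89 ± 0.125 in intact females (1.86-fold lower, adjusted p = 0.000174) and by 1.03 ± 0.125 in ovariectomized females (2.04-fold lower, adjusted p = 0.000122). The 2 responses differed by -0.13 ± 0.177, with an interval from -0.52 to 0.25 (adjusted p = 0.609). Ovariectomized females had less Cxcl10 than intact ones under dexamethasone, by -0.45 ± 0.125 (adjusted p = 0.0391), a call lost in 7 of the 12 fits that left out a library. Those were intact vehicle replicate 3, intact dexamethasone replicates 1 and 2, ovariectomized vehicle replicate 1 and ovariectomized dexamethasone replicates 1, 2 and 3 (adjusted p = 0.0521 to 0.135). Under vehicle the difference was -0.31 ± 0.125 (adjusted p = 0.0812), and it passed without intact vehicle replicate 1 (adjusted p = 0.041). Of its exon bases, 5.91% are shared with Art3 on the opposite strand, whose group means lay between 5.92 and 6.17.

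Cxcl9, which interferon gamma induces and which acts on the same receptor as Cxcl10, is the other chemokine gene of this pair. It was at 8.72, 9.07 and 8.62 in intact vehicle and 8.16, 7.95 and 8.42 in intact dexamethasone libraries. It was at 8.53, 8.14 and 8.20 in ovariectomized vehicle and 8.001, 7.89 and 7.83 in ovariectomized dexamethasone libraries. In each gonadal state the vehicle libraries were above the dexamethasone libraries, and intact vehicle was above all other groups. Cxcl9 fell with dexamethasone in intact females by 0.63 ± 0.146 (adjusted p = 0.00406). After ovariectomy the value was -0.38 ± 0.146 and did not pass (adjusted p = 0.0549). That value passed in 7 of 23 alternatives, among them without intact vehicle replicate 2, intact dexamethasone replicate 2 or 3, or ovariectomized vehicle replicate 2 (adjusted p = 0.0347 to 0.0468). The responses were not shown to differ (0.25 ± 0.206, adjusted p = 0.398). Under vehicle Cxcl9 was lower after ovariectomy by -0.51 ± 0.146 (adjusted p = 0.022), which did not pass without intact vehicle replicate 2 or ovariectomized vehicle replicate 2 or 3 (adjusted p = 0.0697 to 0.0778).

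Cxcl1, a neutrophil-attracting chemokine gene and a classical NF-kappaB target, had the widest spread of the 10 genes among intact vehicle replicates. Its values were 7.11, 7.49 and 6.67 in intact vehicle and 6.60, 6.50 and 6.51 in intact dexamethasone libraries. After ovariectomy they were 6.62, 6.87 and 7.28 under vehicle and 6.30, 6.32 and 6.23 under dexamethasone. The SD was 0.408 and 0.335 in the vehicle groups and 0.054 and 0.0473 in the dexamethasone groups, and the libraries did not overlap in either gonadal state. Cxcl1 fell by 0.56 ± 0.189 in intact (adjusted p = 0.0289) and by 0.64 ± 0.189 in ovariectomized females (adjusted p = 0.0179). The call in intact females was lost without intact vehicle replicate 1 or 2 or any 1 of the 3 intact dexamethasone libraries (adjusted p = 0.0545 to 0.117). The one in ovariectomized females was lost without ovariectomized vehicle replicate 3 (adjusted p = 0.0751) or ovariectomized dexamethasone replicate 3 (adjusted p = 0.0537). The difference between the responses was -0.09, with an interval from -0.67 to 0.50, and was positive without intact vehicle replicate 3 (0.12) or ovariectomized vehicle replicate 3 (0.093).

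Tnfaip3 encodes A20, a ubiquitin-editing enzyme that shuts down signalling from the tumour necrosis factor and interleukin 1 receptors. It was at 6.46, 6.56 and 6.60 in intact vehicle and 6.51, 6.32 and 6.60 in intact dexamethasone libraries. It was at 6.24, 6.16 and 6.31 in ovariectomized vehicle and 6.57, 6.66 and 6.62 in ovariectomized dexamethasone libraries. The ovariectomized vehicle libraries were the lowest 3 of the 12. Tnfaip3 was lower after ovariectomy under vehicle, by -0.31 ± 0.0869 (adjusted p = 0.0217). Leaving out intact vehicle replicate 3 or ovariectomized vehicle replicate 1 or 2 ended this call (adjusted p = 0.058 to 0.0762). With dexamethasone it rose by 0.38 ± 0.0869 in ovariectomized females (1.30-fold, adjusted p = 0.0048), and in intact females it was at -0.06 (adjusted p = 0.57), a value that was positive without intact dexamethasone replicate 2 (0.015). The responses differed by 0.44 ± 0.123 (adjusted p = 0.0224; 0.0545 without intact vehicle replicate 3).

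Nfkbia, which encodes IkappaBalpha, had the highest level per kilobase of the 10 genes. Its values were 10.06, 9.997 and 9.78 in intact vehicle, 9.63, 9.88 and 9.98 in intact dexamethasone, 10.02, 10.09 and 10.06 in ovariectomized vehicle and 10.19, 10.14 and 9.89 in ovariectomized dexamethasone libraries. The groups overlapped in all 4 comparisons. With dexamethasone it was at -0.11 (interval from -0.34 to 0.11) in intact and 0.01 (-0.21 to 0.24) in ovariectomized females. The second value was negative once libraries had been recentred to a common median (-0.0098) or quantile normalized (-0.030). Adjusted p was at least 0.139 in the 5 comparisons; with library weights Nfkbia passed with dexamethasone in intact females (adjusted p = 0.0442) and between gonadal states under dexamethasone (0.00767).

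**Figure D2:**
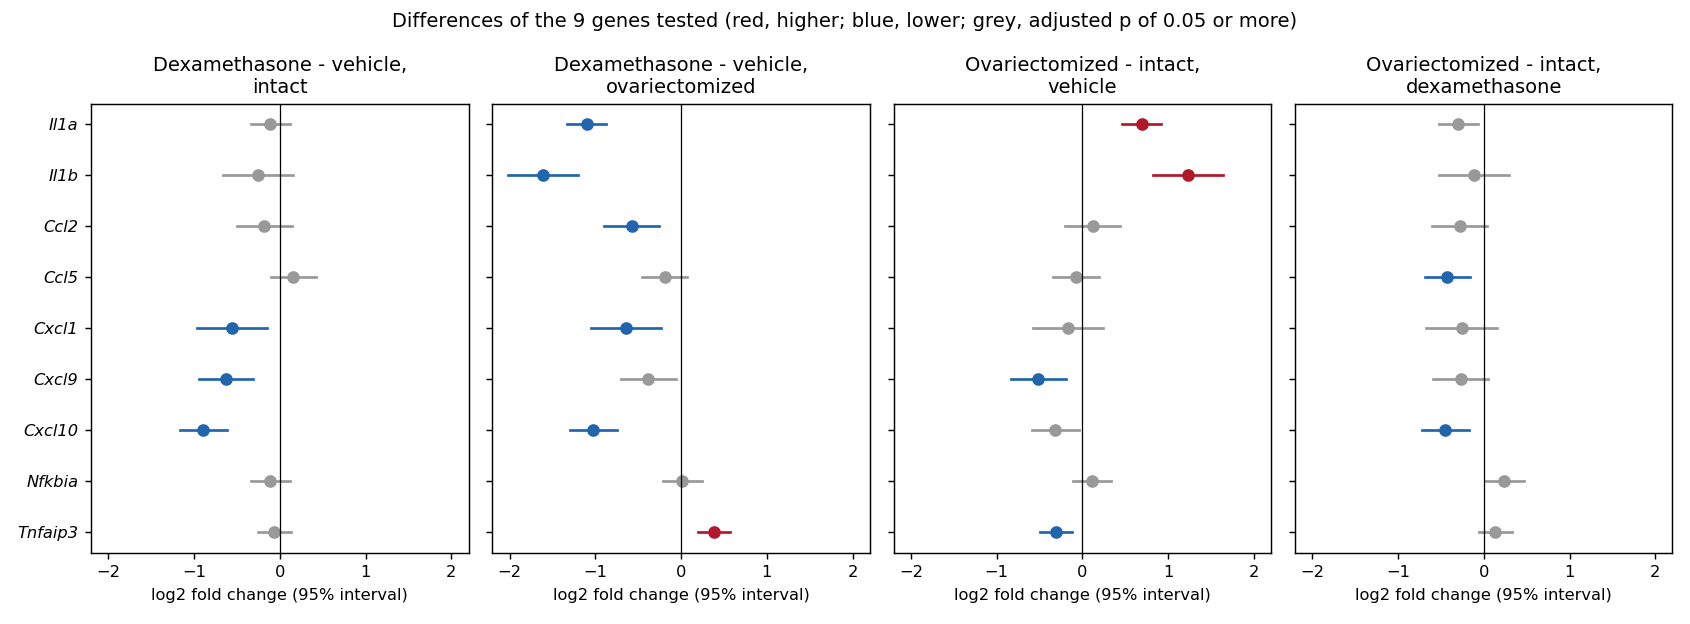
Log2 fold changes (x axis) with 95% intervals of the 9 genes tested (rows) in the 4 comparisons (panels); red is higher, blue is lower at an adjusted p under 0.05, grey did not pass. Il1b moves most, at -1.61 with dexamethasone after ovariectomy and 1.23 with ovariectomy under vehicle.

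**Figure D3:**
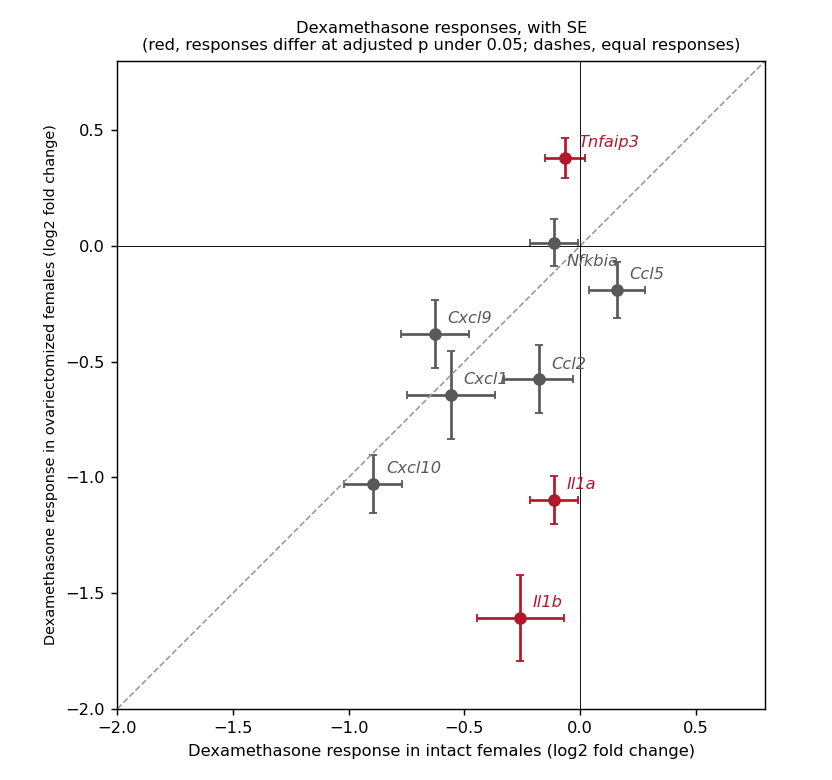
Dexamethasone response in intact (x axis) against ovariectomized females (y axis), log2 fold changes with SE, for the 9 genes tested; the dashed line marks equal responses. Il1a, Il1b and Tnfaip3, in red, lie off the line by more than the test's threshold, and the other 6 do not.

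Receptors and decoys decide which cells can read these ligands. Of 15 genes listed, 11 were tested. With dexamethasone 2 rose and 3 fell in intact females, and the same numbers rose and fell in ovariectomized females, beside 48.8% and 40.7% of all genes called. Il1r1, the signalling receptor of interleukin 1, rose by 0.92 ± 0.196 in intact (adjusted p = 0.00245) and by 1.56 ± 0.196 in ovariectomized females (adjusted p = 0.000141). Its libraries lay at 9.77 to 10.4 under vehicle and 10.5 to 11.4 under dexamethasone in intact females, and at 9.75 to 9.94 and 11.3 to 11.5 in ovariectomized females. Il1rn, the secreted receptor antagonist of interleukin 1, fell by 0.98 ± 0.139 (adjusted p = 0.000193) and 0.53 ± 0.139 (adjusted p = 0.00991). Neither response was shown to differ between gonadal states (0.64, adjusted p = 0.108, for Il1r1, and 0.44, adjusted p = 0.117, for Il1rn). Ackr2, a decoy that removes CC chemokines, rose by 0.68 ± 0.163 in intact females (adjusted p = 0.00482). Ackr2 rose in ovariectomized females too. Under dexamethasone 0 of the 11 differed between gonadal states by limma's adjusted p, beside 12.8% of all genes, and 2 had an unadjusted p under 0.05.

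Adaptors and kinases that connect the receptors to NF-kappaB changed in both directions. Of 24 tested, dexamethasone raised 3 and lowered 4 in intact females, and 5 rose and 2 fell in ovariectomized females, beside 48.8% and 40.7% of all genes called. With 1 library left out, these counts ran from 0 to 3 and 1 to 4 in intact, and from 2 to 6 and 1 to 2 in ovariectomized females. Ticam1, the adaptor TRIF of Toll-like receptors 3 and 4, rose by 0.73 ± 0.0739 with dexamethasone in ovariectomized females (adjusted p = 3.27e-05). It also rose in intact females, and its responses differed by 0.53 ± 0.104 (adjusted p = 0.00468). Under vehicle it was lower after ovariectomy. Tirap, which brings MyD88 to Toll-like receptors, moved in opposite directions. It fell by 0.33 ± 0.0642 in intact (adjusted p = 0.00142) and rose by 0.33 ± 0.0642 in ovariectomized females (adjusted p = 0.00178), a difference of 0.66 ± 0.0908 (adjusted p = 0.000862). Under vehicle Tirap was lower after ovariectomy (-0.45 ± 0.0642, adjusted p = 0.000824).

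Of the 5 NF-kappaB subunit genes, 0 passed with dexamethasone in intact females by limma's adjusted p, beside 48.8% of all genes. In that comparison 3 had an unadjusted p under 0.05. Relb and Nfkb2, the subunits of the noncanonical pathway, fell in ovariectomized females, beside 19.4% of all genes. Relb fell by 0.81 ± 0.115 (adjusted p = 0.000287) and Nfkb2 by 0.55 ± 0.0691 (adjusted p = 0.000141). Relb libraries lay at 6.64 to 6.89 in ovariectomized vehicle and 5.90 to 5.98 in ovariectomized dexamethasone livers, and at 6.21 to 6.63 and 6.22 to 6.51 in intact ones. Their responses differed between gonadal states by -0.77 ± 0.163 for Relb (adjusted p = 0.00663) and -0.43 ± 0.0978 for Nfkb2 (adjusted p = 0.00896). Under vehicle Nfkb2 was 0.30 ± 0.0691 (adjusted p = 0.00902) and Rela, the main canonical subunit, 0.28 ± 0.0667 (adjusted p = 0.011) higher after ovariectomy. Relb was at 0.33 ± 0.115 there and did not pass (adjusted p = 0.0518).

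Of 17 other inhibitors and feedback genes, dexamethasone raised 7 and lowered 2 in intact females, and 4 rose and 1 fell in ovariectomized females, beside 22.8% and 21.3% of all genes that rose. Their medians were 0.14 and 0.0063. Dusp1, a phosphatase that inactivates the p38 and JNK kinases, rose by 1.88 ± 0.206 in intact females (adjusted p = 3.59e-05), and its response was 1.39 smaller after ovariectomy (-1.39 ± 0.291, adjusted p = 0.00616). Dusp1 lay at 8.59 to 9.13 in intact vehicle, 10.6 to 11.0 in intact dexamethasone, 9.48 to 10.1 in ovariectomized vehicle and 9.89 to 10.5 in ovariectomized dexamethasone libraries. Tsc22d3, the glucocorticoid-induced leucine zipper gene, rose by 0.59 ± 0.15 and 1.13 ± 0.15 (adjusted p = 0.00664 and 0.000189). Nfkbib, which encodes IkappaBbeta, rose by 0.42 ± 0.0935 and 0.71 ± 0.0935 (adjusted p = 0.00325 and 0.000174). Tank, a regulator of TRAF signalling, rose by 0.75 ± 0.0719 in ovariectomized females (adjusted p = 2.33e-05), where it had been lower than in intact ones under vehicle (-0.35 ± 0.0719, adjusted p = 0.00492). The responses of Tank (0.50 ± 0.102), Cyld (0.30 ± 0.0716) and Tnip2 (-0.41 ± 0.0933) also differed, with adjusted p of 0.00536, 0.0119 and 0.00912.

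Other NF-kappaB targets moved in both directions. Of 40 listed, 22 were tested, and Ccl20 and Cxcl3 were listed at 0 in every library. Il6, Ccl3, Ccl4 and Cxcl2 were among the 18 below the filter, with highest values of 0.91, 2.17, 2.30 and 1.01. Dexamethasone raised 5 and lowered 6 of them in intact females, and 5 rose and 8 fell in ovariectomized females. The share called in intact females, 11 of 22, was near the 48.8% of all genes, and 13 of 22 in ovariectomized females stood against 40.7%. The median of the 22 was -0.027 and -0.18. The product of Lcn2, lipocalin 2, withholds iron from bacteria. Lcn2 rose by 2.68 ± 0.196 (adjusted p = 3.26e-06) and 4.06 ± 0.196 (adjusted p = 5.46e-07), and its responses differed by 1.39 ± 0.277 (adjusted p = 0.00498). Gadd45b, a stress sensor, rose by 1.41 ± 0.352 and 1.93 ± 0.352 (adjusted p = 0.00612 and 0.0013), and the adhesion molecule gene Vcam1 by 0.88 ± 0.224 in ovariectomized females (adjusted p = 0.00843). Vcam1 rose in intact females too. In the ovariectomized libraries in which Lcn2 rose, Il1b and Cxcl10 fell by 1.61 and 1.03.

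**Figure D4:**
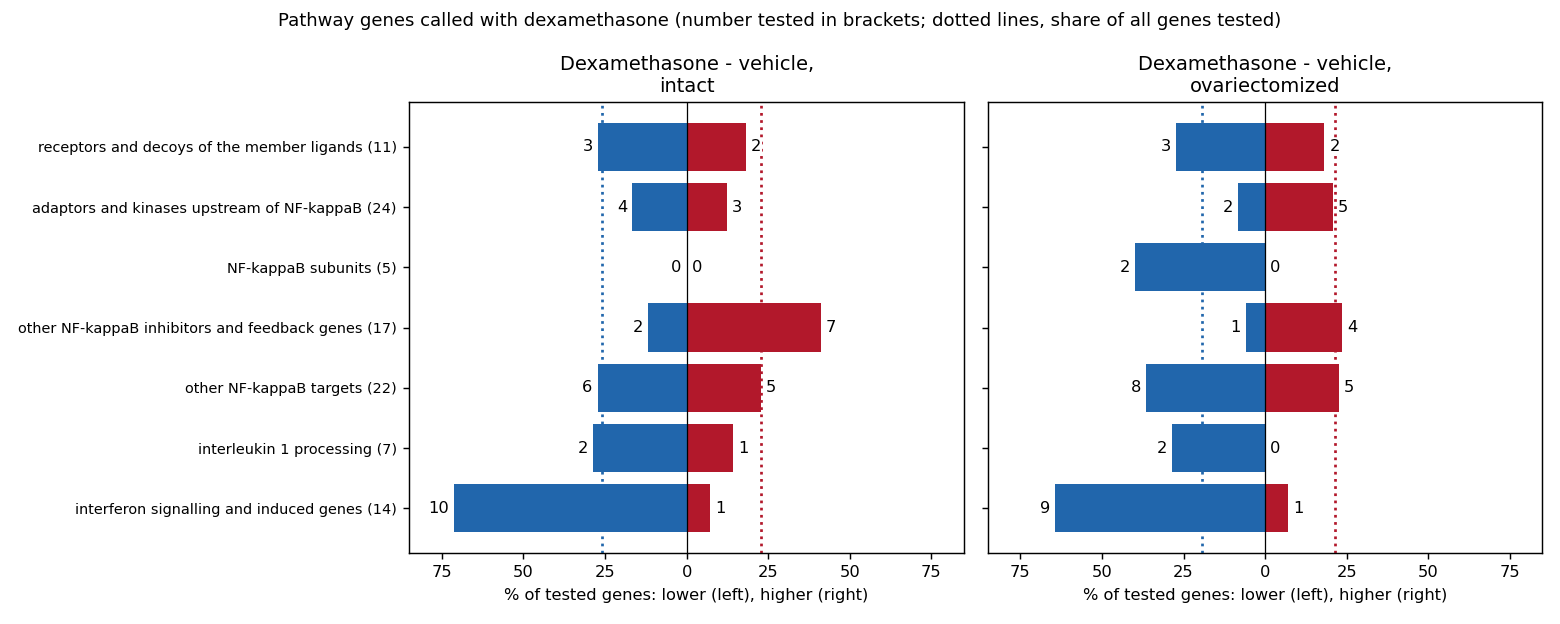
Share of tested genes called higher (red, to the right) or lower (blue, to the left) with dexamethasone for 7 pathway lists, in percent (x axis), in intact and ovariectomized females; numbers are genes, brackets give the number tested, and dotted lines give the share of all genes called in that direction. In the interferon list 10 and 9 of 14 genes fell.

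Interleukin 1 is processed and released by proteases and inflammasome proteins. Of 7 of their genes tested, dexamethasone raised 1 and lowered 2 in intact females, and 0 rose and 2 fell in ovariectomized females, beside 48.8% and 40.7% of all genes called. Capn1, a calpain of the family that cleaves interleukin 1 alpha, fell by 0.62 ± 0.0912 in both (adjusted p = 0.000232 and 0.000361). Pycard, the inflammasome adaptor, fell by 0.50 ± 0.105 in ovariectomized females (adjusted p = 0.00298), and Casp4, the inflammatory caspase, rose by 0.50 ± 0.134 in intact females (adjusted p = 0.00907). Casp1, the protease that matures interleukin 1 beta, was at 0.01 and -0.16 and did not pass (adjusted p = 0.942 and 0.353). Under vehicle 0 of the 7 differed between gonadal states by limma's adjusted or unadjusted p, beside 27.9% of all genes by adjusted p. In this comparison Il1b was 2.35-fold higher after ovariectomy.

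Most interferon signalling and interferon-induced genes tested fell with dexamethasone, as did Cxcl10 in both gonadal states and Cxcl9 in intact females. Of 14 tested, 10 fell and 1 rose in intact females and 9 fell and 1 rose in ovariectomized females, beside 25.9% and 19.4% of all genes that fell. The medians were -0.49 and -0.42. Ifit1, an antiviral effector, fell by 1.13 ± 0.0927 and 1.15 ± 0.0927 (adjusted p = 6.44e-06 and 7.64e-06). The GTPase gene Gbp2 fell by 1.19 ± 0.205 in intact females (adjusted p = 0.000635), and Ifngr2, a chain of the interferon gamma receptor, by 0.58 ± 0.07 (adjusted p = 6.29e-05). Gbp2 and Ifngr2 fell in ovariectomized females too. Irf7 and Isg15 fell by 0.73 ± 0.0715 and 0.76 ± 0.0945 in ovariectomized females (adjusted p = 2.52e-05 and 0.000129). Both also fell in intact females. Of the 14 responses, 1 differed between gonadal states by limma's adjusted p, beside 24.9% of all genes. Under vehicle 6 of the 14 were lower after ovariectomy, as was Cxcl9, beside 15.5% of all genes. Among the 6 were Ifit1 (-0.69 ± 0.0927, adjusted p = 0.000646) and Jak2 (-0.31 ± 0.0738, adjusted p = 0.0107).

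Among leukocyte markers, those of neutrophils moved with some of these genes. Of 8 neutrophil markers, Ly6g was not analysed here, the other 7 were above 0, and 3 were tested. Their summed log2 level was 7.22 to 7.58 in intact vehicle, 7.26 to 7.40 in intact dexamethasone, 7.58 to 7.92 in ovariectomized vehicle and 6.86 to 7.02 in ovariectomized dexamethasone libraries. The sum was thus lowest in the same 3 libraries in which Il1a was lowest, and highest in the group in which Il1a and Il1b were highest. The vehicle groups barely separated, with ovariectomized replicate 1 at 7.583 and intact replicate 2 at 7.578. Csf3r had the highest mean of the 3 neutrophil markers tested (6.57) and weighs most in this sum. The log2 sum of 8 cholangiocyte markers, none at 0, was likewise highest in ovariectomized vehicle libraries (11.68 to 11.88), above the 11.24 to 11.53 of the other 9. Its mean was lowest in ovariectomized dexamethasone libraries (11.29), which overlapped the intact ones. Spp1, with the highest mean of these markers (10.96), dominates this sum. Of 7 cholangiocyte markers tested, 2 were higher and 0 lower after ovariectomy under vehicle, beside 12.4% and 15.5% of all genes. These were Spp1, by 0.49 ± 0.0876 (adjusted p = 0.00242), and Epcam, by 0.39 ± 0.0768 (adjusted p = 0.00404). With dexamethasone 1 of the 7 rose (Sox9) and 1 fell (Krt23) in intact females, beside 22.8% and 25.9% of all genes. In ovariectomized females 3 of the 7 fell and 0 rose, beside 19.4% and 21.3% of all genes. Among the 3 were Spp1, by 0.58 ± 0.0876 (adjusted p = 0.000402), and Epcam, by 0.33 ± 0.0768 (adjusted p = 0.00575). The responses of Spp1 and Epcam differed between gonadal states (-0.70 and -0.51, adjusted p = 0.00264 and 0.00668). Among the neutrophil markers, S100a9 and Csf3r fell by 1.17 ± 0.223 and 0.66 ± 0.0896 with dexamethasone in ovariectomized females (adjusted p = 0.0017 and 0.000223), and S100a8 by 0.85 ± 0.242 (adjusted p = 0.0151). The S100a8 call was lost without ovariectomized vehicle replicate 3 or ovariectomized dexamethasone replicate 1 (adjusted p up to 0.063). In intact females 0 of the 3 neutrophil markers tested passed by limma's adjusted or unadjusted p, and in ovariectomized females all 3 fell. Of all genes, 48.8% passed by adjusted p in intact and 19.4% fell in ovariectomized females. Under vehicle 1 of the 3, S100a9, was higher after ovariectomy by limma's adjusted p (0.0485), beside 12.4% of all genes. The difference between responses passed for Csf3r (-0.71 ± 0.127, adjusted p = 0.00278) and for S100a9 (-1.06 ± 0.315, adjusted p = 0.0291), the latter lost in 8 alternative fits. The part of neutrophil and cholangiocyte markers in the Il1a and Il1b results was not tested.

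Kupffer cell and macrophage markers took a different course. The sum of 14 of 15 (Adgre1 was not analysed here; none at 0) was 14.17 to 14.24 in intact vehicle, 13.97 to 14.09 in intact dexamethasone, 13.75 to 13.99 in ovariectomized vehicle and 13.53 to 13.89 in ovariectomized dexamethasone libraries. It was highest in intact vehicle livers, whereas Il1b was highest in ovariectomized vehicle livers. Of 13 tested, 0 were higher and 6 lower after ovariectomy under vehicle, beside 12.4% and 15.5% of all genes, among them Csf1r, the receptor that macrophages need to survive (-0.53 ± 0.0741, adjusted p = 0.00081), and Cd5l (-0.57 ± 0.0907, adjusted p = 0.00136). With dexamethasone 3 fell in intact females, beside 25.9% of all genes. In ovariectomized females 5 fell and 1 rose, beside 19.4% and 21.3% of all genes. There Cd68 fell by 0.55 ± 0.0806 (adjusted p = 0.000356) and the scavenger receptor gene Cd163 rose by 1.02 ± 0.193 (adjusted p = 0.00162). Of 8 T and NK cell markers tested, with Ccl5 itself among them, 0 passed with dexamethasone in either gonadal state by limma's adjusted or unadjusted p. Of all genes, 48.8% and 40.7% passed by adjusted p. All 5 B cell markers tested fell in both gonadal states, beside 25.9% and 19.4% of all genes. Their sum, with 6 markers, was 8.20 to 8.67 in the vehicle and 7.52 to 7.84 in the dexamethasone libraries. The sum of 7 dendritic cell markers was 8.52 to 8.67 under vehicle and 8.76 to 8.95 under dexamethasone. Of the 4 tested, Clec9a had the highest mean (7.90). In intact females 1 rose (Clec9a) and 1 fell, beside 22.8% and 25.9% of all genes. In ovariectomized females 1 rose and 0 fell, beside 21.3% and 19.4%. The median change of the 4 was -0.19 in intact and -0.059 in ovariectomized females. Sums of 10 sinusoidal endothelial and 12 stellate cell and fibroblast markers did not overlap between treatments in intact females, at 13.56 to 13.95 with dexamethasone against 13.2 to 13.4 and at 14.2 to 14.3 against 13.5 to 13.8. In ovariectomized females the endothelial sums were also apart (13.47 to 13.76 with dexamethasone, 13.23 to 13.43 under vehicle). The stellate sums overlapped there (13.70 to 13.93 and 13.47 to 13.90). Of the 10 endothelial markers, 4 rose and 1 fell in intact and 3 rose and 3 fell in ovariectomized females. Of the 12 stellate ones, 7 and 2 rose and 0 fell. Of all genes, 22.8% and 21.3% rose, and 25.9% and 19.4% fell. The part of these cell types in the results was not tested.

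**Figure D5:**
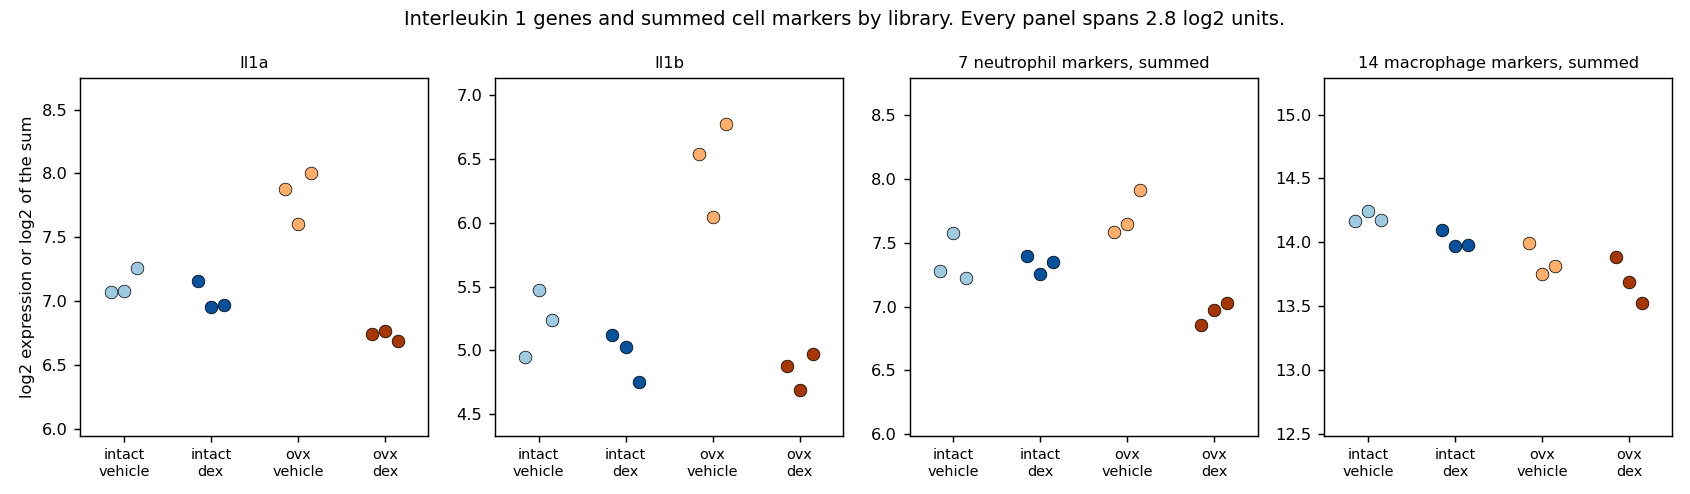
Log2 expression of Il1a and Il1b, and the log2 of the summed levels of 7 neutrophil and 14 Kupffer cell and macrophage markers (y axis), in the 12 libraries by group (x axis). The neutrophil sum is highest in ovariectomized vehicle (7.58 to 7.92) and lowest in ovariectomized dexamethasone libraries (6.86 to 7.02), and the macrophage sum is highest in intact vehicle libraries (14.17 to 14.24).

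The genes whose centred profiles over the 12 libraries were nearest to each of the 8 genes that passed in some comparison were found by the root mean square difference. For Il1a they were Nfe2l3 (0.136), Chn1os3 (0.136) and Nes (0.154), beside an SD of Il1a itself of 0.435. For Il1b, with an SD of 0.703, they were Spsb2 (0.229), the immediate early gene Junb (0.242) and Slc26a10 (0.246). Mov10 (0.133), Ttc23 (0.155) and Spata22 (0.158) were nearest to Cxcl10, with an SD of 0.558, and Rasgrp1 (0.134), Cep128 (0.136) and Gfra2 (0.137) to Cxcl9, with one of 0.382. Another gene holds 79.7% of the 50-base words of Spata22, which is uncertain. The T cell kinase gene Lck (0.0972) was among the 3 nearest to Ccl5, with Mutyh and Lrmp. Notch3 (0.111) was nearest to Ccl2, Rwdd3 (0.128) to Cxcl1 and Timeless (0.0811) to Tnfaip3. These likenesses describe libraries that fall into 4 groups, whose differences they share.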

How the data were processed

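Per the labels' protocols, RNA of mouse liver was extracted with TRIzol and RNeasy columns, made into TruSeq libraries and sequenced on a NextSeq. The tools named, per the submitters' processing notes, are DESeq, DESeq2, HTSeq, TopHat2 and Trim Galore, with the mm9 genome and no role or version. The deposited table holds log2 expression values made by the authors, one column per library. The transformation, annotation and strand setting were not given in the sources used here. Values ran from -2.22 to 22.03, and 6294 of 24962 entries held 0 throughout. The read depth cannot be recovered from log2 values, so precision was read from the spread of replicates.

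For 392 symbols with several entries the one with the highest mean was kept. The test covered the 12965 genes whose mean log2 value reached 4. The 4 group means were fitted to all libraries with limma 3.58.1 in R 4.3.3 (8 residual degrees of freedom, prior variance with a trend on the mean). A gene is called rose, fell, higher or lower where its Benjamini-Hochberg adjusted p, over all genes tested, was under 0.05; there was no minimum fold. Every ± beside a log2 fold change is a standard error, and beside a level an SD of 3 libraries; intervals are 95% intervals of limma. The fit was tested on simulated data.

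The 10 genes and all lists were chosen with earlier results of these data known. Genes named were the 10, up to 4 per pathway list and comparison with the largest change among those called, Fkbp5 and Tsc22d3, marker genes as examples, and the 3 nearest profiles for each of the 10 genes called anywhere. Some list genes enter the counts but are not reported here by name. Other genes called on a list are given with values only where the call held in every alternative (108 of 185 calls of a gene in a comparison) and otherwise counted, with S100a8, S100a9, Casp1, Relb under vehicle and low cytokine genes as exceptions chosen after their values were seen.

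Alternatives were no filter or a mean of at least 6, the entry with the lowest mean, quantile normalization, recentring, library weights, 8 added to the linear values, a replicate block, a robust prior or one without a trend, only the libraries compared, a minimum absolute log2 fold change of 1, and each library left out. The same alternatives for the list genes were chosen after seeing the data. Promoters came from RefSeq GRCm38.p6, and transcript lengths, exon overlaps and shared 50-base words from GENCODE M21 on GRCm38; no coordinate was taken from mm9. Protein sequences were not used here, so a planned comparison of the protein sequences was not run. Figures were drawn with Python 3.11.15 and matplotlib 3.10.9.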

Additional observations from a re-analysis of the deposited data

Results flagged for a closer look

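In 3 of the 9 genes tested, the dexamethasone response differed between the gonadal states by the interaction term of the limma fit. For Il1a the response in ovariectomized minus that in intact females was -0.99 ± 0.146 (SE, log2 scale, adjusted p = 0.00124): all 3 ovariectomized dexamethasone libraries were below all 3 ovariectomized vehicle libraries, while the intact groups overlapped. For Il1b it was -1.35 ± 0.265 (adjusted p = 0.00454), with the same arrangement of libraries. For Tnfaip3 it was 0.44 ± 0.123 (adjusted p = 0.0224), with the ovariectomized dexamethasone libraries above the ovariectomized vehicle libraries and the intact groups overlapping. Each of these differences involves the ovariectomized vehicle group, which held the highest 3 values of Il1a and Il1b and the lowest 3 of Tnfaip3.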

How the results depend on the processing

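Of 1011 recomputed fold changes of the 9 genes tested, 939 kept their direction and their side of the threshold, 38 lost and 18 gained a call, and 16 changed sign, none of the 16 for a call; the cause was not tested. The sign changed for Nfkbia with dexamethasone after ovariectomy (recentred -0.0098, quantile normalization -0.030, library weights -0.025, and -0.042 to 0.11 with 1 library left out, negative without ovariectomized vehicle replicate 1 or ovariectomized dexamethasone replicate 1 or 2) and for Tnfaip3 with dexamethasone in intact females (-0.13 to 0.015 with 1 library left out, positive without intact dexamethasone replicate 2). It changed between gonadal states for Ccl5 under vehicle (library weights 0.037, and -0.16 to 0.066 with 1 library left out, positive without intact vehicle replicate 2), Cxcl1 under vehicle (-0.38 to 0.030, positive without the same library) and Il1b under dexamethasone (quantile normalization 0.025). For the difference between responses it changed for Cxcl1 (quantile normalization 0.020, and -0.28 to 0.12 with 1 library left out, positive without replicate 3 of either vehicle group), Cxcl10 (quantile normalization 0.00044) and Cxcl9 (library weights -0.0071).

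With a minimum absolute log2 fold change of 1, which removes calls by construction, 0 of the 10 genes were called with dexamethasone in intact and 3 in ovariectomized females, 1 and 0 between gonadal states under vehicle and dexamethasone, and 1 for the difference between responses, against 313, 359, 66, 40 and 165 of all genes (6323, 5283, 3618, 1662 and 3234 without it). Library weights called 5 of the 10 with dexamethasone in intact females (Ccl2, Ccl5 and Nfkbia gained, Cxcl1 lost) and 4 between gonadal states under dexamethasone, and 5919, 5777 and 6659 of all genes between gonadal states under vehicle, under dexamethasone and for the difference. The 2 calls between gonadal states under dexamethasone (Cxcl10, Ccl5) were the least stable. No filter, quantile normalization and only the libraries compared left 0, and a mean of at least 6, which leaves Ccl5 untested, 1; of all genes, quantile normalization called 768 and only the libraries compared 601.

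Leaving out 1 library gave 2 to 3 of the 10 genes and 5214 to 6290 of all genes with dexamethasone in intact females, and 5 to 7 and 3982 to 5623 in ovariectomized females. Between gonadal states it gave 2 to 5 and 2215 to 3989 under vehicle, lowest over all genes without intact vehicle replicate 1, and 0 to 2 and 207 to 1852 under dexamethasone, lowest without ovariectomized dexamethasone replicate 3. For the difference it gave 2 to 4 and 2174 to 3520.

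Replicate numbers recur across groups, but deviations of samples with the same number correlated from -0.231 to 0.396, so the numbers were not taken as pairs. With a replicate block 1 of the 10 genes was called between gonadal states under dexamethasone (Ccl5 adjusted p = 0.0583), and no other count of these genes moved by over 1.5 times. Of 4251 recomputed fold changes of list genes, 3796 stayed as they were, 451 lost and 4 gained a call, and 0 changed sign. The depth of the libraries is unknown, which limits what can be said of Tnf and of the targets below the filter.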
